A study of Mus musculus with 4 samples.

Results

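The NF-κB transcription factors and their inhibitors were examined in splenic B220+ cells as 10 genes chosen by name. These were the 5 Rel subunits *Rel*, *Rela*, *Relb*, *Nfkb1* and *Nfkb2*, the 3 classical inhibitors *Nfkbia*, *Nfkbib* and *Nfkbie*, and the 2 nuclear IκB proteins *Nfkbiz* and *Bcl3*. All 10 were found, by Ensembl identifiers matched to the GENCODE symbols of GRCm38 (mm10), among the 41214 genes of the count table. All 10 were also among the 14554 genes that reached 10 counts in 2 or more libraries and were tested.

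The study asked how MIZ-1, a zinc finger transcription factor encoded by *Zbtb17*, acts on gene expression in B cells, and compared RNA of unstimulated B220+ splenocytes from 2 genotypes. MIZ-1 △POZ mice carried MB1-Cre, which is expressed from the *Cd79a* locus and is active in the B lineage, together with Miz-1 floxPOZ alleles. In their B cells Cre removes the POZ domain, through which MIZ-1 contacts other proteins, and a shortened MIZ-1 that keeps its zinc fingers is made. MIZ-1 WT mice kept the whole protein, and whether they carried Cre is not given in the sources used here. All lines were on a C57BL/6 background, and mice were used at 40 to 70 days of age. Labels give neither the sex nor the exact age of the mice behind each library. Each genotype had 2 libraries, which the study calls biological replicates. The labels do not say whether they came from separate animals, and p-values here measure the spread between these libraries. The gene counts of MIZ-1 WT totalled 44452007 in replicate 1 and 43026814 in replicate 2, and those of MIZ-1 △POZ totalled 46387209 in replicate 1 and 43214303 in replicate 2. Levels are given as CPM, the count of a gene relative to the size of its library after edgeR's TMM scaling, and fold changes divide MIZ-1 △POZ by MIZ-1 WT. The library kit kept strand information, but the strand setting of the counting is not given in the sources used here, so where genes overlap on opposite strands their values are uncertain.

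NF-κB proteins share the Rel homology region and bind DNA as dimers, which IκB proteins hold in the cytoplasm of resting cells. Signals of the B cell receptor (BCR) reach the IκB kinase, which then marks IκBα for breakdown and so frees dimers such as p50-RelA and p50-c-Rel. The receptors for BAFF and CD40L also feed an alternative pathway, in which TRAF3 is lost, the kinase NIK builds up and p100 is cut to p52, the partner of RelB, and mature B cells depend on both routes for survival and for division after activation.

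*Zbtb17*, the targeted gene, reached 47.84 and 46.30 CPM in the MIZ-1 WT libraries and 37.27 and 38.03 CPM in the MIZ-1 △POZ libraries. Both MIZ-1 △POZ libraries lay below both MIZ-1 WT libraries, but the count covers the whole gene and so does not measure the deleted part alone. It was lower, at -0.32 on the log2 scale (SE 0.0561, adjusted p = 0.00857). Here and throughout, adjusted p-values come from the quasi-likelihood test of edgeR, adjusted after Benjamini and Hochberg over all tested genes. It was no longer called with library sizes set by 8 pan-B cell genes (-0.072, adjusted p = 0.462) or without MIZ-1 WT replicate 1 (-0.30, adjusted p = 0.0666). All 13 pan-B cell markers were detected in every library, but detection alone does not check the purity of the B220+ cells. Markers of other cell types are given later. The pan-B cell markers summed to 13740, 14090, 11670 and 12050 CPM in MIZ-1 WT replicates 1 and 2 and MIZ-1 △POZ replicates 1 and 2. The most abundant was *Ms4a1*, which encodes CD20, with 3821, 4013, 3309 and 3370 CPM in the same order.

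Of the 10 NF-κB members, 3 fell in MIZ-1 △POZ and none rose. These 3 were *Rel*, *Rela* and *Nfkb1*. Over all tested genes, 40.0% were called at an adjusted p under 0.05, with 18.9% lower and 21.1% higher in MIZ-1 △POZ. With 1 library left out, the count of lower members was 0 without MIZ-1 WT replicate 1, 2 without MIZ-1 WT replicate 2, 1 without MIZ-1 △POZ replicate 1 and 3 without MIZ-1 △POZ replicate 2. With all libraries, the members' 3 of 10 lay under the overall share of calls in either direction and above the share of lower calls. At an unadjusted p under 0.05, 5 members were lower and 0 higher, while 50.2% of all tested genes passed in either direction and 24.3% were lower. The Wald test of DESeq2 also called 3 members lower and 0 higher, and over all tested genes it called 16.6% lower and 18.3% higher. For 6 of the 10, *Rel*, *Rela*, *Nfkb1*, *Nfkbia*, *Nfkbiz* and *Bcl3*, both MIZ-1 △POZ libraries lay below both MIZ-1 WT libraries, against 37.6% of all tested genes in this direction and 74.8% in either direction. All 10 fitted log2 fold changes were negative, with a median of -0.14 beside -0.0064 over all tested genes. Library sizes set by the 8 pan-B cell genes shifted all genes upward by a median of 0.25, and signs thus depend on the scaling. The median of all tested genes was then 0.24 and that of the members 0.12, with *Rel* alone called lower and *Nfkb2* and *Nfkbie* called higher. In such bulk samples, fewer cells of a type and less RNA per cell cannot be told apart.

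**Figure D1:**
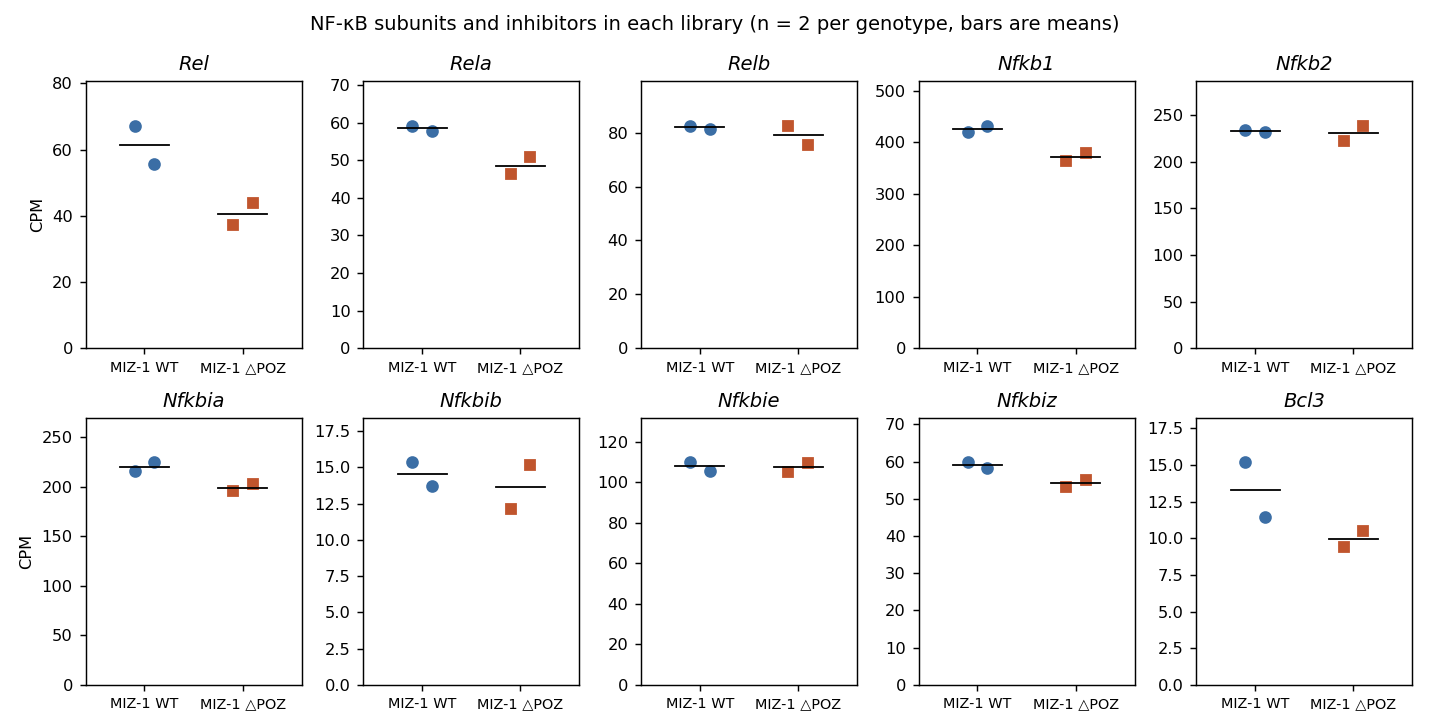
Levels of the 10 NF-κB members in CPM (vertical axes, each starting at 0), with circles for the MIZ-1 WT libraries, squares for the MIZ-1 △POZ libraries and lines for the means of n = 2. *Rel* stands at 67.28 and 55.58 CPM in MIZ-1 WT and at 37.21 and 43.84 in MIZ-1 △POZ, while the libraries of *Relb*, *Nfkb2*, *Nfkbib* and *Nfkbie* overlap between genotypes.

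*Rel* (ENSMUSG00000020275) encodes c-Rel, a subunit with a transactivation domain that mature B cells need for division after BCR signals, and lies on the minus strand at chr11:23736847-23770970. It reached 67.28 and 55.58 CPM in MIZ-1 WT replicates 1 and 2 and 37.21 and 43.84 CPM in MIZ-1 △POZ replicates 1 and 2. Both MIZ-1 △POZ libraries were low, and on the log2 scale the replicates of each genotype lay further apart than those of *Rela* or *Nfkb1*. The log2 fold change was -0.60 (95% confidence interval -0.90 to -0.31), a level 0.659 times that of MIZ-1 WT (adjusted p = 0.0125). *Rel* stayed lower with pan-B scaling (-0.35, adjusted p = 0.0381), and without MIZ-1 WT replicate 1 it was no longer called (-0.46, adjusted p = 0.0661).

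*Rela* (ENSMUSG00000024927) encodes p65, the partner of p50 in the best-known NF-κB dimer, and lies on the plus strand at chr19:5637483-5648130. Its levels were 59.24 and 57.75 CPM in MIZ-1 WT and 46.37 and 50.81 CPM in MIZ-1 △POZ. The MIZ-1 WT replicates were close together and both stood above the MIZ-1 △POZ replicates. *Rela* fell by a log2 fold change of -0.27 (95% confidence interval -0.43 to -0.11, adjusted p = 0.0226). This call ended with pan-B scaling (-0.019, adjusted p = 0.853), without MIZ-1 WT replicate 1 (-0.25, adjusted p = 0.126), without MIZ-1 WT replicate 2 (-0.29, adjusted p = 0.0879) and without MIZ-1 △POZ replicate 1 (-0.19, adjusted p = 0.0738).

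*Nfkb1* (ENSMUSG00000028163) encodes p105, which serves as an inhibitor itself and is processed to p50, and lies on the minus strand at chr3:135584655-135691547. It had 419.7 and 432.3 CPM in MIZ-1 WT and 363.7 and 378.9 CPM in MIZ-1 △POZ. The groups did not overlap, and the gap between them was wider than that between the replicates of either genotype. The fold change was small, at -0.20 on the log2 scale (95% confidence interval -0.32 to -0.079, adjusted p = 0.0233). With pan-B scaling it turned positive (0.052, adjusted p = 0.465). It was not called when genes with a mean below 10 CPM were left out (-0.15, adjusted p = 0.0539), nor without MIZ-1 WT replicate 1 (-0.22, adjusted p = 0.0993), MIZ-1 WT replicate 2 (-0.18, adjusted p = 0.141) or MIZ-1 △POZ replicate 1 (-0.16, adjusted p = 0.0621).

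The subunits of the alternative dimer were not called with TMM scaling. *Nfkb2* (ENSMUSG00000025225, chr19:46304320-46312385, plus strand), which encodes p100 and its product p52, had 233.9 and 232.3 CPM in MIZ-1 WT and 222.0 and 238.9 CPM in MIZ-1 △POZ. *Relb* (ENSMUSG00000002983, chr7:19606217-19629438, minus strand), the partner of p52, had 82.62 and 81.40 CPM in MIZ-1 WT and 82.64 and 75.46 CPM in MIZ-1 △POZ. In both genes the genotypes overlapped, since MIZ-1 △POZ replicate 2 was the highest library for *Nfkb2* and MIZ-1 △POZ replicate 1 the highest for *Relb*. The log2 fold change of *Nfkb2* was -0.017 (95% confidence interval -0.15 to 0.11, adjusted p = 0.822) and that of *Relb* was -0.053 (95% confidence interval -0.20 to 0.097, adjusted p = 0.521). With pan-B scaling *Nfkb2* was called higher (0.23, adjusted p = 0.0130), while *Relb* turned positive without a call (0.20, adjusted p = 0.0860). Exons of *Nfkb2* overlap those of *Psd* over 299 bases and of *AC114539.1* over 531 bases on the other strand, so its value is uncertain to that extent. Whether the change of *Rel*, *Rela* or *Nfkb1* differed from that of *Nfkb2* or *Relb* was not tested.

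Among the classical inhibitors, *Nfkbia* (ENSMUSG00000021025, chr12:55489410-55492647, minus strand) encodes IκBα, which is broken down on activation and made again as a target of NF-κB. It had 215.8 and 224.7 CPM in MIZ-1 WT and 195.2 and 202.4 CPM in MIZ-1 △POZ. Both MIZ-1 △POZ libraries were the lower ones, and the log2 fold change of -0.15 (95% confidence interval -0.27 to -0.031) missed the threshold at an adjusted p of 0.0531. *Nfkbie* (ENSMUSG00000023947, chr17:45555703-45563169, plus strand) encodes IκBε, which binds c-Rel and RelA dimers, and had 110.0 and 105.9 CPM in MIZ-1 WT and 105.3 and 109.6 CPM in MIZ-1 △POZ. The libraries of the genotypes overlapped, with a log2 fold change of -0.0065 (95% confidence interval -0.13 to 0.12, adjusted p = 0.927). *Nfkbib* (ENSMUSG00000030595, chr7:28758251-28767512, minus strand), which encodes IκBβ, was low at 15.36 and 13.70 CPM in MIZ-1 WT and 12.12 and 15.20 CPM in MIZ-1 △POZ. Its MIZ-1 △POZ replicates spanned most of the range, and the interval of its log2 fold change reached from -0.42 to 0.24 (estimate -0.090, adjusted p = 0.620). Exons of *Nfkbib* share 314 bases with *Ccer2* and 42 with *Sirt2* on the other strand, so these values are uncertain. None of the 3 inhibitors was called by edgeR or by DESeq2, and 1 of them, *Nfkbia*, had an unadjusted p under 0.05. With pan-B scaling all 3 turned positive, *Nfkbia* at 0.10 (adjusted p = 0.168), *Nfkbib* at 0.16 (adjusted p = 0.350) and *Nfkbie* at 0.24 (adjusted p = 0.0175).

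Nuclear IκB proteins act on chromatin, where they bind p50 or p52 dimers. *Bcl3* (ENSMUSG00000053175, chr7:19808462-19822770, minus strand), which was first known as an oncogene of B cell tumours, had 15.18 and 11.44 CPM in MIZ-1 WT and 9.392 and 10.50 CPM in MIZ-1 △POZ. MIZ-1 WT replicate 1 was the highest library and MIZ-1 WT replicate 2 stood close to the MIZ-1 △POZ libraries. Its log2 fold change of -0.42 was the next largest among the members after *Rel*, with a 95% confidence interval from -0.81 to -0.036 and an adjusted p of 0.0787. It was called lower with no filter on counts (-0.43, adjusted p = 0.0439) and without MIZ-1 WT replicate 2 (-0.61, adjusted p = 0.0483), and without MIZ-1 WT replicate 1 it stood at -0.20 (adjusted p = 0.393). Exons of *Bcl3* overlap those of *Gm16175* on the other strand over 161 bases. *Nfkbiz* (ENSMUSG00000035356, chr16:55811375-55838899, minus strand), which encodes IκBζ, a factor induced by Toll-like receptors, had 59.81 and 58.13 CPM in MIZ-1 WT and 53.20 and 55.05 CPM in MIZ-1 △POZ. The groups lay apart by a small margin, with a log2 fold change of -0.12 (95% confidence interval -0.26 to 0.0073, adjusted p = 0.115) that turned to 0.13 (adjusted p = 0.176) with pan-B scaling. Of these 2 genes, edgeR and DESeq2 called 0, and 1 (*Bcl3*) had an unadjusted p under 0.05.

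**Figure D2:**
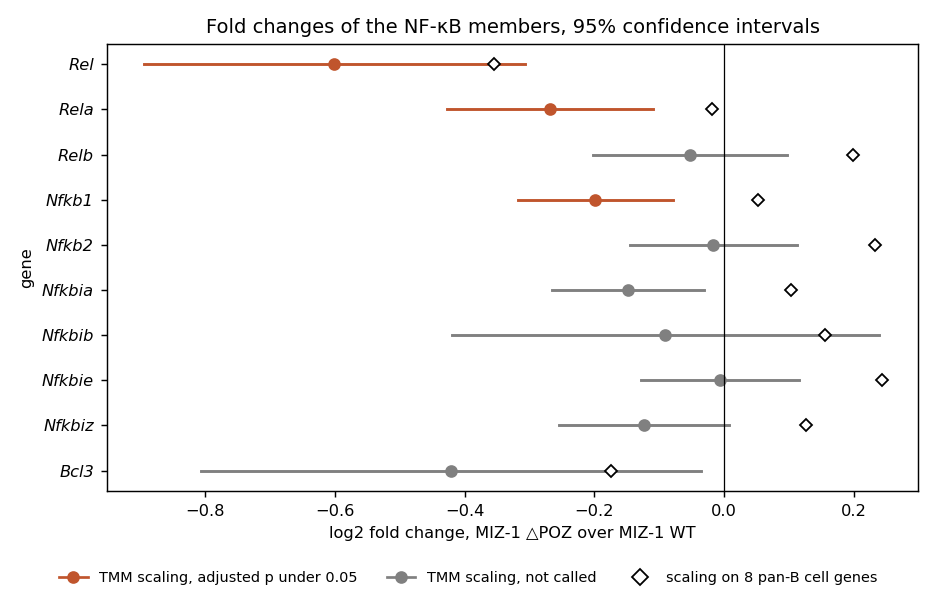
Log2 fold changes of the 10 members (horizontal axis, MIZ-1 △POZ over MIZ-1 WT) with 95% confidence intervals from edgeR's fit, in orange where the adjusted p was under 0.05 and in grey otherwise. All 10 circles lie below 0, from -0.60 for *Rel* to -0.0065 for *Nfkbie*, while the open diamonds, which give the values with library sizes set by 8 pan-B cell genes, lie further to the right, and with that scaling the median of all tested genes is 0.24.

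Levels of different genes were compared per length, as RPKM over the union of each gene's exons. In MIZ-1 WT the order was *Nfkbia* (137 ± 3.87 RPKM, SD, n = 2), *Nfkb2* (50.9 ± 0.241), *Nfkbie* (35.4 ± 0.966), *Nfkb1* (35.3 ± 0.739), *Relb* (21.1 ± 0.223), *Rela* (19.0 ± 0.343), *Nfkbiz* (11.8 ± 0.237), *Rel* (8.23 ± 1.11), *Nfkbib* (6.70 ± 0.539) and *Bcl3* (5.38 ± 1.07). Only *Nfkbie* and *Nfkb1* were neighbours whose libraries overlapped. In MIZ-1 △POZ the order was the same except that *Nfkbib* (6.30 ± 1.00 RPKM) came before *Rel* (5.43 ± 0.628), and these were the only neighbours that overlapped there. The places of *Nfkb1* and *Bcl3* depended on the length used. Exons of *Nfkb1* cover far more bases in union than in its longest transcript, and over the longest transcript it reached 103 RPKM in MIZ-1 WT and 89.5 RPKM in MIZ-1 △POZ, above *Nfkb2* at 60.6 and 59.9 RPKM. *Bcl3* then stood above *Nfkbib* in MIZ-1 WT, at 7.19 against 7.05 RPKM.

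As shares of the summed RPKM of the 5 subunits, *Rel* made up 6.65% and 5.56% of MIZ-1 WT replicates 1 and 2, against 4.15% and 4.69% of MIZ-1 △POZ replicates 1 and 2. The share of *Nfkb2* was 37.7% and 37.9% against 40.3% and 41.6%. Library scaling cancels in such a share, so it describes the makeup of the subunit RNA alone: the share of *Rel* was lower in both MIZ-1 △POZ libraries and that of *Nfkb2* higher in both. *Rela* was at 14.3% and 14.1% against 12.6% and 13.2%, which also do not overlap. *Relb* was at 15.7% in both MIZ-1 WT libraries and at 17.8% and 15.5% in MIZ-1 △POZ, which overlap. *Nfkb1* was at 25.7% and 26.8% against 25.2% and 25.1%, lower in both MIZ-1 △POZ libraries. Over the longest transcript *Nfkb1* held the largest mean share, with 47.1% in MIZ-1 WT against 45.5% in MIZ-1 △POZ. Summed RPKM of the subunits was 135 and 134 in MIZ-1 WT, against 120 and 125 in MIZ-1 △POZ, and that of the 3 classical inhibitors was 177 and 181 against 161 and 169. The ratio of inhibitor to subunit RPKM was 1.31 and 1.35 in MIZ-1 WT, against 1.34 and 1.35 in MIZ-1 △POZ, so the genotypes overlapped in this ratio. Over the longest transcript the mean ratio was 0.837 in MIZ-1 WT against 0.855 in MIZ-1 △POZ, and its size is therefore no guide to which class was more abundant.

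Upstream of the members, the IκB kinase and the TAK1 complex that activates it were given by 7 genes, of which 1 fell and 1 rose (median log2 fold change -0.088, beside -0.0064 over all tested genes). Their 2 of 7 lay under the 40.0% of all tested genes that were called. *Ikbkb*, which encodes IKKβ, the catalytic subunit that phosphorylates IκBα, reached 356.4 and 356.9 CPM in MIZ-1 WT and 189.1 and 211.0 CPM in MIZ-1 △POZ. The MIZ-1 WT libraries were nearly equal and both MIZ-1 △POZ libraries stood far below them. The log2 fold change was -0.83 (SE 0.0629, adjusted p = 0.00108), lower than that of any of the 10 members, and *Ikbkb* was called lower under all 10 alternatives, pan-B scaling included (-0.59). *Chuk*, which encodes IKKα and was the most abundant of the list over the union of exons, at 37.8 RPKM in MIZ-1 WT and 36.2 RPKM in MIZ-1 △POZ, had 182.2, 201.9, 185.8 and 182.4 CPM in MIZ-1 WT replicates 1 and 2 and MIZ-1 △POZ replicates 1 and 2. Over the longest transcript *Ikbkb* stood above *Chuk* in MIZ-1 WT, at 73.6 against 54.8 RPKM. The groups of *Chuk* overlapped (log2 fold change -0.061, adjusted p = 0.461), and it turned positive with pan-B scaling (0.19) and without MIZ-1 WT replicate 2 (0.013). *Tab1*, an adaptor of TAK1, had 23.02 and 25.58 CPM in MIZ-1 WT and 29.25 and 31.08 CPM in MIZ-1 △POZ and rose (0.31, adjusted p = 0.0282). That call ended without MIZ-1 WT replicate 1 (0.24) or MIZ-1 WT replicate 2 (0.39). Without MIZ-1 △POZ replicate 2, 3 genes of the list were called lower.

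The alternative pathway was given by 8 genes, of which 5 fell and 1 rose (median -0.23), while over all tested genes 18.9% were called lower and 21.1% higher. *Tnfrsf13c*, which encodes the BAFF receptor, was the most abundant of them over the union of exons, at 170 RPKM in MIZ-1 WT and 106 RPKM in MIZ-1 △POZ, while over the longest transcript *Birc3* stood above it in MIZ-1 △POZ, at 114 against 109 RPKM. *Tnfrsf13c* went from 369.0 and 326.2 CPM in MIZ-1 WT to 210.2 and 224.0 CPM in MIZ-1 △POZ, which is -0.68 on the log2 scale (SE 0.0727, adjusted p = 0.00222). *Traf3*, the adaptor that keeps NIK low, went from 164.9 and 157.7 CPM to 118.9 and 125.2 CPM (-0.40, adjusted p = 0.00344). The other 3 genes that fell were *Cd40*, *Traf2* and *Map3k14*, which encodes NIK (log2 fold changes -0.27, -0.21 and -0.25, adjusted p = 0.0215, 0.0216 and 0.0210). *Ltbr*, which encodes the lymphotoxin β receptor and is found mainly on stromal and myeloid cells, was low at 1.696 and 2.189 CPM in MIZ-1 WT and rose to 9.203 and 6.289 CPM in MIZ-1 △POZ (log2 fold change 2.00, adjusted p = 0.00318). The 20 macrophage markers given later moved with it, and their part in this value was not tested. With pan-B scaling 1 gene of the list was lower and 3 were higher, *Traf3* was not called (-0.15, adjusted p = 0.0847), and the median was 0.020. The count of lower genes was 2 without MIZ-1 WT replicate 1 and 3 without MIZ-1 WT replicate 2. The 13 pan-B cell markers moved in the same way as the lower genes, with 10 lower and 1 higher and a median of -0.25 (5 lower without either MIZ-1 WT replicate, 7 without MIZ-1 △POZ replicate 1 and 5 with pan-B scaling), and their part in these values was not tested. The largest fall among them was that of *Cd79a* (-1.44, adjusted p = 0.00157), the locus that carries MB1-Cre in MIZ-1 △POZ mice and was left out of the scaling.

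Of 11 genes listed as negative regulators of the pathway, 2 fell and none rose (median -0.14). This share was close to the 18.9% of lower calls over all tested genes. At an unadjusted p under 0.05, 4 were lower and 0 higher, and DESeq2 also called 2 lower and 0 higher. The list includes *Btrc* (-0.14, adjusted p = 0.148) and *Fbxw11* (-0.07, adjusted p = 0.376), which encode β-TrCP proteins. These help to break down phosphorylated IκBα and so act for the pathway, not against it. *Tnip2*, which encodes ABIN-2, a partner of A20 and p105, had 40.65 and 41.57 CPM in MIZ-1 WT and 32.74 and 32.01 CPM in MIZ-1 △POZ (-0.34, adjusted p = 0.00765). *Nfkbid*, which encodes the nuclear protein IκBNS, had 63.25 and 58.70 CPM against 46.96 and 48.26 CPM (-0.36, adjusted p = 0.00790). For both, the MIZ-1 △POZ libraries were close to each other and below the MIZ-1 WT libraries. *Otulin*, which encodes the protease that removes linear ubiquitin, was the most abundant per length at 62.9 RPKM in MIZ-1 WT and 57.1 RPKM in MIZ-1 △POZ and was not called (-0.14, adjusted p = 0.0613). The 2 calls ended with pan-B scaling (-0.093 for *Tnip2*, -0.11 for *Nfkbid*) and without MIZ-1 WT replicate 1 (-0.36 and -0.30). Without MIZ-1 WT replicate 2 the list held 1 call, since *Tnip2* missed the threshold (adjusted p = 0.0548), and without MIZ-1 △POZ replicate 2 it held 4.

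Of 26 genes known as NF-κB targets in B cells 25 were tested, since *Il6* had too few counts, and 13 rose while 2 fell (median 0.36 beside -0.0064 over all tested genes, of which 21.1% were called higher and 18.9% lower). Fitted log2 fold changes were positive for 18 of the 25 and negative for 7. The 20 macrophage markers given later were also higher, and their part in the values of the target genes was not tested. *Traf1*, an adaptor of TNF receptors, had 58.25 and 58.27 CPM in MIZ-1 WT and 89.86 and 90.82 CPM in MIZ-1 △POZ. Its replicates were nearly equal within each genotype and the genotypes lay far apart (log2 fold change 0.63, SE 0.0473, adjusted p = 0.00108). *Fas*, which encodes a death receptor, was lower in level and went from 7.267 and 8.161 CPM to 17.65 and 15.17 CPM (1.09, adjusted p = 0.00232). Among the genes that fell, *Ccr7*, which encodes a chemokine receptor of the T cell zone, went from 146.2 and 137.3 CPM to 94.07 and 104.5 CPM (-0.51, adjusted p = 0.00370). *Tnf*, which encodes the cytokine, went from 24.80 and 22.72 CPM to 15.36 and 17.02 CPM (-0.55, adjusted p = 0.00690), a call that ended without MIZ-1 WT replicate 1 (-0.49, adjusted p = 0.0591). The most abundant of the list per length was *Slfn2*, a gene needed for lymphocyte quiescence, at 212 RPKM in MIZ-1 WT and 185 RPKM in MIZ-1 △POZ. It had 345.8, 358.8, 329.2 and 287.4 CPM in MIZ-1 WT replicates 1 and 2 and MIZ-1 △POZ replicates 1 and 2 (-0.19, adjusted p = 0.0850), was called lower without MIZ-1 △POZ replicate 1 (-0.29, adjusted p = 0.00733) and with no filter on counts (-0.20, adjusted p = 0.0476), and turned positive with pan-B scaling (0.061). The count of 13 higher genes was 16 with pan-B scaling, 6 without MIZ-1 WT replicate 1 and 4 without MIZ-1 WT replicate 2, and the count of lower genes was 1 without MIZ-1 WT replicate 1.

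Of 15 immediate-early genes, which respond within minutes to receptor signals or to handling of the cells, 3 rose and 4 fell (median -0.11), near the 21.1% called higher and 18.9% called lower over all tested genes. *Atf3*, with only 31 and 28 counts in MIZ-1 WT, went from 0.7107 and 0.6662 CPM in MIZ-1 WT to 2.353 and 2.073 CPM in MIZ-1 △POZ (1.68, adjusted p = 0.00371). *Jun*, which encodes a subunit of AP-1, went from 58.57 and 75.16 CPM to 104.0 and 112.0 CPM (0.69, adjusted p = 0.00833). The largest fold change of the list was that of *Fos*, from 5.96 and 18.01 CPM to 40.05 and 57.35 CPM (2.025, adjusted p = 0.0213). Its MIZ-1 WT replicates lay far apart. *Ier2* went from 37.71 and 38.12 CPM to 23.01 and 26.13 CPM (-0.63, adjusted p = 0.00349). *Zfp36*, which encodes tristetraprolin, a protein that speeds the decay of cytokine mRNAs, went from 112.1 and 114.2 CPM to 58.03 and 74.69 CPM (-0.77, adjusted p = 0.00560). Exons of *Jun* and *Zfp36* overlap other genes on the opposite strand, so their values are uncertain. *Btg2*, an antiproliferative gene and the most abundant per length at 148 RPKM in MIZ-1 WT and 124 RPKM in MIZ-1 △POZ, went from 406.5 and 407.6 CPM to 336.8 and 341.5 CPM (-0.26, adjusted p = 0.00721). Its call ended with pan-B scaling (-0.013, adjusted p = 0.875). It also ended without MIZ-1 WT replicate 1 (-0.27) and without MIZ-1 WT replicate 2 (-0.26), where the fold change was about as large. With pan-B scaling 5 genes of the list were higher and 2 lower. The count of higher genes was 5 without MIZ-1 WT replicate 2 and 5 without MIZ-1 △POZ replicate 1, and that of lower genes was 2 without MIZ-1 WT replicate 1.

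**Figure D3:**
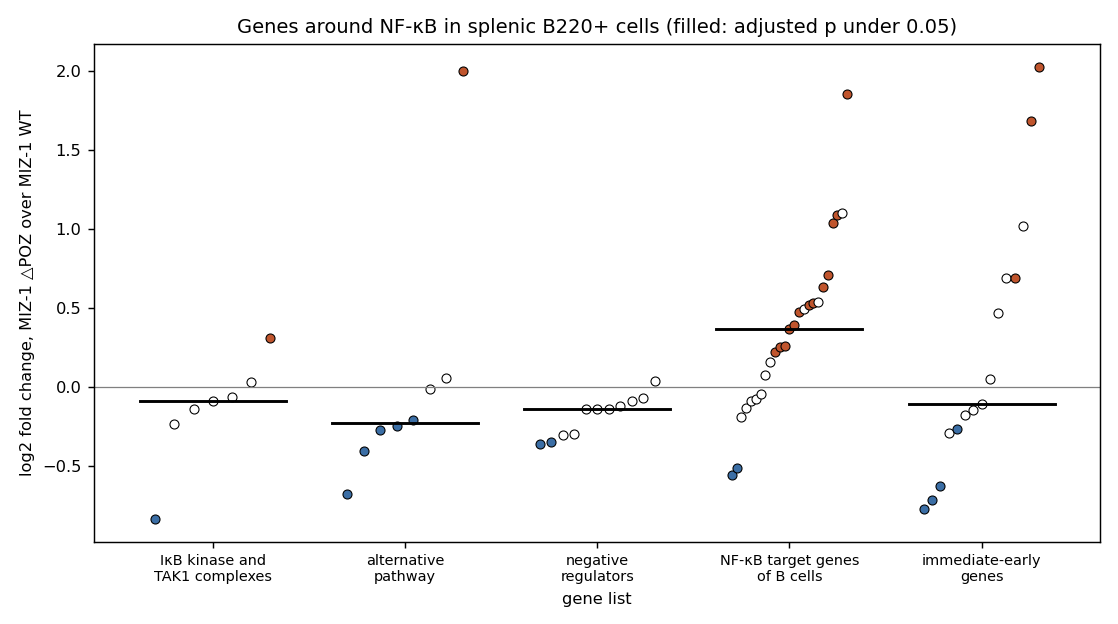
Log2 fold changes (vertical axis, MIZ-1 △POZ over MIZ-1 WT) of the tested genes of 5 lists around NF-κB (horizontal axis), with filled points for genes at an adjusted p under 0.05 and a bar for each list's median. The median of the target genes is 0.36 and those of the other lists lie between -0.23 and -0.088, beside -0.0064 over all tested genes, and with library sizes set by 8 pan-B cell genes, where the median of all tested genes is 0.24, the medians run from 0.020 for the alternative pathway to 0.61 for the target genes.

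Markers of several cell types also moved with genotype. All 20 macrophage markers were higher in MIZ-1 △POZ (median log2 fold change 1.98), with sums of 1031, 1358, 6001 and 3912 CPM in MIZ-1 WT replicates 1 and 2 and MIZ-1 △POZ replicates 1 and 2, and *Vcam1* was the most abundant at 265.4, 345.2, 1515 and 899.0 CPM. The 7 plasma cell markers were all higher (median 1.35, sums 641.3, 968.1, 2511 and 2325 CPM), led by *Jchain* at 302.2, 615.6, 1948 and 1787 CPM. The 8 marginal zone markers were all higher as well (median 0.71, sums 3114, 3110, 3956 and 4256 CPM), led by *Cr2*, which encodes CD21, at 2148, 2170, 2472 and 2657 CPM. The log2 fold change of *Cr2* was 0.25 (adjusted p = 0.0282), and from 0.215 to 0.309 with 1 library left out. Its call ended without MIZ-1 WT replicate 1, MIZ-1 WT replicate 2 or MIZ-1 △POZ replicate 2. With 1 library left out, from 18 to 20 macrophage markers, all 7 plasma cell markers and from 6 to 8 marginal zone markers were still called higher. Reads that HTSeq assigned to no feature also split by genotype. Of all that HTSeq listed, they made up 27.2% and 25.5% in MIZ-1 WT against 21.6% and 21.1% in MIZ-1 △POZ. Whether such reads lay between genes or inside them is not given in the sources used here. The part of these reads and cell types in the values of the 10 members and of the lists was not tested.

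Other cell types left fewer counts. T cell markers summed to 103, 81.94, 106.3 and 114 CPM over 13 genes in MIZ-1 WT replicates 1 and 2 and MIZ-1 △POZ replicates 1 and 2 (2 higher, median 0.17), with *Lck* the most abundant at 39.68, 33.57, 34.23 and 37.07 CPM. The 6 NK cell markers summed to 54.38, 50.85, 57.68 and 63.59 CPM (2 higher, median 0.12, led by *Gzma*; 1 higher without MIZ-1 WT replicate 1, MIZ-1 WT replicate 2 or MIZ-1 △POZ replicate 1 and with DESeq2) and the 7 dendritic cell markers to 85.72, 85.7, 116.5 and 80.7 CPM (3 higher, 2 without MIZ-1 WT replicate 1, median 0.74). *Siglech*, the most abundant dendritic cell marker, was at -0.40 (adjusted p = 0.164) and was 1 of 2 called lower without MIZ-1 △POZ replicate 1 (-0.77, adjusted p = 0.000655). The 7 erythroid markers summed to 47.96, 59.41, 38.16 and 109.4 CPM, led by *Hbb-bs*, and none was called by edgeR or DESeq2 or had an unadjusted p under 0.05, although 6 were called higher without MIZ-1 △POZ replicate 1 and 1, *Hbb-bs*, lower without MIZ-1 △POZ replicate 2 (-0.48, adjusted p = 0.0265). These sums overlapped between genotypes except for T and NK cells, where the MIZ-1 △POZ libraries were slightly higher. Neutrophil markers summed to 14.9, 4.759, 9.035 and 17.23 CPM over 9 genes, led by *S100a9*, with 1 of 6 tested higher (median 1.01). That call ended without MIZ-1 WT replicate 1 or MIZ-1 △POZ replicate 2. More markers were called higher without MIZ-1 △POZ replicate 1, and 3 were with pan-B scaling. *Elane* had 0 counts in both MIZ-1 WT libraries and in MIZ-1 △POZ replicate 1, and *Ly6g* had 0 counts in MIZ-1 WT replicate 1 and MIZ-1 △POZ replicate 1. The 6 endothelial and stromal markers summed to 311.3, 312.8, 256.8 and 267.9 CPM, nearly all from *Pecam1*, which B cells also express and which was the 1 lower gene of 3 tested (median 0.22). Its call (-0.26, adjusted p = 0.00900) ended without MIZ-1 WT replicate 1 (-0.26), without MIZ-1 WT replicate 2 (-0.26) and with pan-B scaling (-0.0070, adjusted p = 0.930).

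Sex-linked genes split by genotype too. *Xist*, which is transcribed from the inactive X chromosome of females, had 1.123 and 1.428 CPM in MIZ-1 WT and 801.5 and 930.5 CPM in MIZ-1 △POZ, while 4 of 4 Y-linked genes were lower in MIZ-1 △POZ, such as *Ddx3y* with 363.1 and 354.4 CPM against 14.29 and 14.17 CPM. The Y-linked genes were not absent from MIZ-1 △POZ, where they stood at 0.0397 to 0.0512 times the MIZ-1 WT level. The source of these remaining counts was not tested. Each library followed the split, so sex and genotype cannot be told apart for any value given here.

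The promoters of the members were searched for the κB consensus, the sequence that NF-κB dimers bind, because several members are known targets of the family itself. RefSeq promoter windows on GRCm38.p6, which reach from upstream of a RefSeq transcript start to shortly after it, were at hand for 7 of the 10 members, and *Nfkb1*, *Relb* and *Nfkbiz* were not matched. The 3 windows of *Nfkb2* and the window of *Nfkbib* lie wholly within the GENCODE bounds of these genes given above. The consensus was searched on both strands, and 2776 of 32817 promoter windows, 8.46%, held at least 1 match. Among the members it was found in 7 of 9 windows, belonging to 5 genes, *Rel*, *Nfkb2*, *Nfkbia*, *Nfkbie* and *Bcl3*, but 2 windows of *Nfkb2* overlap and share 1 match, which is thus counted in both. The windows of *Rela* and *Nfkbib* held no match, which says only that these letters are not in those windows. Called genes (*Rel*) and genes that were not called (*Nfkb2*, *Nfkbia*, *Nfkbie* and *Bcl3*) thus both held matches. A match describes letters and is not a measured binding site.

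Shown here are *Rel*, the member with the largest fold change, *Nfkb2*, the most abundant subunit over the union of exons, and *Nfkbia*, the most abundant inhibitor, each 5′ to 3′ on the strand of its gene with the matches in capitals. The *Rel* window lies at chr11:23770920-23771219 on the minus strand. Its capitals, written as on the gene strand, hold 2 overlapping matches. GGGAAATCCC reads as the consensus on both strands, and GGAAATCCCC reads as the consensus on the opposite strand. The *Nfkb2* window lies at chr19:46304487-46304786 on the plus strand, the first of 3 windows of this gene. It holds the overlapping matches GGGAATTCCC, read on both strands, and GGAATTCCCC, read on the opposite strand. It also holds GGGGCTTTCC, read on the gene strand. The *Nfkbia* window lies at chr12:55492598-55492897 on the minus strand. It holds GGAAATTCCC, written as on the gene strand, which reads as the consensus on the opposite strand.
Rel: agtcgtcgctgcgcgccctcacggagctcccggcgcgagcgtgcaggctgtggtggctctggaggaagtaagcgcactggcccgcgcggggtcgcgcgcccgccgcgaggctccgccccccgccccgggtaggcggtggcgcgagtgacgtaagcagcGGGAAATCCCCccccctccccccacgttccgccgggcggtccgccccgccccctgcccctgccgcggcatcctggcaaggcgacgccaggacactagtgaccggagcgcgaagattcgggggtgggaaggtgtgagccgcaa
Nfkb2: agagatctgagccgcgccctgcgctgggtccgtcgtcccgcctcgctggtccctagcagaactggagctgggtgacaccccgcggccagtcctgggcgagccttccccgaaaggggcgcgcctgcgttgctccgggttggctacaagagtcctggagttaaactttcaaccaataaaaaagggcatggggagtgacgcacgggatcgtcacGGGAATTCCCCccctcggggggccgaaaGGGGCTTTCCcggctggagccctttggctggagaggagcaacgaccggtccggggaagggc
Nfkbia: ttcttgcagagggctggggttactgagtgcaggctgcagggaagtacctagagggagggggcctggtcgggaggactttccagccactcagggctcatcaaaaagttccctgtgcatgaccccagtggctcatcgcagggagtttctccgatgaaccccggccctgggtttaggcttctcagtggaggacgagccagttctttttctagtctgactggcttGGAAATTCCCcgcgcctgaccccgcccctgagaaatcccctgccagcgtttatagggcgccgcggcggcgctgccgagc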

How the data were processed

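B220+ splenocytes of both genotypes were analysed by rRNA-depleted RNA-seq. The authors trimmed reads (Trimmomatic), mapped them to mm10 (TopHat2), counted them on Ensembl genes (HTSeq) and deposited the counts without normalization or pooling. HTSeq's summary lines were left out. Of all that HTSeq listed, reads assigned to no feature made up 25.5% to 27.2% for MIZ-1 WT and 21.1% to 21.6% for MIZ-1 △POZ. Ambiguous reads made up 0.281% to 0.302%, and alignments that were not unique 42.8% to 44.1%. GENCODE M21 named 40340 of 41214 identifiers. edgeR 4.0.16 (R 4.3.3) fitted all 14554 tested genes with TMM and the quasi-likelihood test, with Benjamini-Hochberg adjustment and a threshold of 0.05. The same fit was run on simulated data. Far fewer genes changed there than were called here, so that run does not test these calls. Replicates of a genotype differed by more than sampling noise. DESeq2 1.42.0, other filters and scalings, a replicate block and each library left out served as alternatives. Named genes were all members. For each pathway list they were the 2 called genes of smallest p in each direction and the most abundant by RPKM. For each marker list they were the most abundant by CPM and markers at 0 counts. *Zbtb17* was named as the targeted gene, and *Xist* and *Ddx3y* as sex-linked genes, for which the labels give no sex to check. Outside this rule, *Cd40*, *Traf2*, *Map3k14*, *Birc3*, *Btrc*, *Fbxw11*, *Fos*, *Cd79a* and *Il6* were also named. The members and lists were chosen with earlier results of these data known. 1 pathway list, 1 marker list and 1 pan-B cell marker fixed beforehand are not reported here.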

Additional observations from a re-analysis of the deposited data

How the results depend on the processing

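Size factors of DESeq2 inside edgeR and the Wald test of DESeq2 kept the direction of all 10 members and the same count of 3 lower. With no filter on counts *Bcl3* was also called (-0.43). When genes with a mean below 10 CPM were left out, fewer genes were tested and log2 fold changes shifted by a median of 0.052. *Nfkb1* then lost its call (-0.15), and *Nfkb2* (0.036), *Nfkbie* (0.046), *Lck* (0.013) and *Gzma* (0.040) changed sign. With this filter 1783 genes were lower, and 0 of the alternative pathway were higher, since *Ltbr* was not tested.

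Scaling on 8 pan-B cell genes shifted log2 fold changes by a median of 0.25, with 5968 genes higher and 768 lower (88.6% of calls higher, against 52.8%). Members called were 1 lower and 2 higher. Values were -0.019 for *Rela*, 0.052 for *Nfkb1*, 0.20 for *Relb*, 0.23 for *Nfkb2*, 0.10 for *Nfkbia*, 0.16 for *Nfkbib*, 0.24 for *Nfkbie* and 0.13 for *Nfkbiz*. *Chuk* (0.19), *Otulin* (0.11), *Slfn2* (0.061), *Ms4a1* (0.021), *Lck* (0.21) and *Gzma* (0.24) also changed sign. Calls were 2 higher for the IκB kinase and TAK1 list, 3 higher and 1 lower for the alternative pathway, 1 and 0 for the negative regulators, and 5 and 2 for the immediate-early genes.

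The replicate block, which pairs libraries by number, gave 2633 genes higher and 2099 lower and called 3 of 10 members lower. It called 5 immediate-early genes higher, against 3 without the block. Target genes called higher were 11, against 13, and alternative pathway genes called lower were 4, against 5. Deviations of same-numbered libraries from the group means correlated at -0.0701, so the numbers were not taken to pair the libraries.

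Leaving out 1 library, with the lone library of a genotype assumed to vary like the others, gave 1374 to 2955 genes higher and 848 to 2626 lower, and 0 to 3 members lower. Log2 fold changes ranged from -0.73 to -0.46 for *Rel*, -0.32 to -0.19 for *Rela*, -0.11 to 0.031 for *Relb*, -0.22 to -0.16 for *Nfkb1*, -0.051 to 0.045 for *Nfkb2*, -0.24 to 0.073 for *Nfkbib*, -0.036 to 0.031 for *Nfkbie* and -0.61 to -0.20 for *Bcl3*. Calls ranged from 0 to 1 higher and 1 to 3 lower (IκB kinase and TAK1), 2 to 5 lower (alternative pathway), 0 to 4 lower (negative regulators), 4 to 13 higher and 1 to 3 lower (targets) and 3 to 5 higher and 2 to 6 lower (immediate-early). Among genes not called with all libraries, *Chuk* (-0.14 to 0.013), *Lck* (-0.16 to 0.085), *Gzma* (-0.16 to 0.15), *S100a9* (-0.60 to 1.37) and *Hbb-bs* (-0.48 to 1.02) changed sign. Where no value shows a cause, the cause of these shifts was not tested. The 2 libraries per genotype limit every call, and *Nfkbib* and *Bcl3*, with the fewest counts, have the widest intervals.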
